A study of Mus musculus with 6 samples.

Results

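The myelin galactolipid enzymes are a set of 9 genes (Ugt8a, Gal3st1, Fa2h, Cers2, Galc, Arsa, Elovl1, Elovl7 and Sgms1) chosen by name from the 32285 genes of the count table, and each name matched exactly 1 gene. Their transcripts were counted by single-nucleus RNA sequencing (snRNA-seq) of the frozen forebrain of 3 WT and 3 Npc1-/- littermate mice at postnatal day 16. Npc1-/- mice carry the Npc1nih allele, which removes the cholesterol transporter of late endosomes and lysosomes in every cell, and mice of both groups were untreated F1 hybrids of the BALB/cJ and C57BL6/J backgrounds. The counts of all mice came joined in 1 table, in which a barcode suffix from 1 to 6 marks the library. No key from suffix to mouse was at hand, so no comparison of genotypes was made, every value below mixes both, and libraries are named by suffix and form no group. The value of Npc1 checks no label here, and over all libraries it was 57.4 CPM (UMIs of the gene per 1000000 UMIs of the class) in oligodendrocyte precursors and 61.5 CPM in mature oligodendrocytes.

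Galactosylceramide and its sulfated form, sulfatide, are the characteristic glycolipids of the myelin sheath. Fatty acid elongases and ceramide synthases build a ceramide with a very long acyl chain, a hydroxylase can modify that chain, a galactosyltransferase adds the sugar and a sulfotransferase adds the sulfate. Lysosomal enzymes remove sulfate and galactose again, and their loss in humans causes leukodystrophies. Ceramide can instead be turned into sphingomyelin, another lipid of myelin and of the plasma membrane in general.

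The genes lie on different chromosomes except for Cers2 and Ugt8a (GRCm38 coordinates from the GENCODE M21 annotation, in which all are protein coding). Ugt8a, the galactosyltransferase that makes galactosylceramide, spans chr3:125865271-125938619 on the minus strand. Gal3st1, the sulfotransferase that makes sulfatide, spans chr11:3983636-3999326 on the plus strand. Fa2h, the hydroxylase of the fatty acid, spans chr8:111345135-111393824 on the minus strand. Cers2, the ceramide synthase for very long acyl chains, spans chr3:95314791-95323599 on the plus strand. Elovl1 (chr4:118428093-118432953, plus strand) and Elovl7 (chr13:108214404-108285683, plus strand) encode fatty acid elongases. Galc, the lysosomal galactosidase of galactosylceramide, spans chr12:98202294-98259459 on the minus strand. Arsa, the lysosomal sulfatase of sulfatide, spans chr15:89472476-89477425 on the minus strand. Sgms1, a sphingomyelin synthase, spans chr19:32122727-32389714 on the minus strand and is the longest of the set at 266988 bases, whereas Elovl1 is the shortest at 4861 bases. Cers2 overlaps Setdb1 and the antisense gene 6330562C20Rik on the opposite strand, Elovl1 overlaps Cdc20, and Galc and Arsa overlap the antisense genes Gm47439 and C230037L18Rik. On the opposite strand, Sgms1 also overlaps 2700046G09Rik, and Elovl7 the pseudogenes Gm32376 and Gm30747. Whether the counting used strand was not stated, so reads of these partners may not be told apart. Sgms1 holds AC113485.1 in an intron on its own strand, where strand does not tell them apart. Nuclear RNA is rich in unspliced transcripts, so levels are compared below between classes for 1 gene at a time and never between genes.

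Promoter sequence from RefSeq (GRCm38.p6) was at hand for 8 of the 9 members, with 15 start sites among them. The 250 bases upstream of the first listed start are shown for the galactosyltransferase and the sulfotransferase, which rose through the lineage, for Elovl7, which had its peak at the newly formed stage, and for Galc, which did not rise. Ugt8a is read from chr3:125938653-125938902 (minus strand), Gal3st1 from chr11:3983386-3983635 (plus strand), Elovl7 from chr13:108214154-108214403 (plus strand) and Galc from chr12:98259460-98259709 (minus strand), each 5′ to 3′. Capitals mark every match, on either strand, to a GC box (GGGCGG) or to a SOX core (ACAAAG or ACAATG), and overlapping matches run together.
Ugt8a: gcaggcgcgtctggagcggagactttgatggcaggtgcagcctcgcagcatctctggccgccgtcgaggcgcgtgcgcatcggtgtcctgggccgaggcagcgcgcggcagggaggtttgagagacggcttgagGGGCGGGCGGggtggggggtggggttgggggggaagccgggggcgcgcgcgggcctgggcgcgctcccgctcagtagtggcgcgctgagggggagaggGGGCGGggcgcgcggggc
Gal3st1: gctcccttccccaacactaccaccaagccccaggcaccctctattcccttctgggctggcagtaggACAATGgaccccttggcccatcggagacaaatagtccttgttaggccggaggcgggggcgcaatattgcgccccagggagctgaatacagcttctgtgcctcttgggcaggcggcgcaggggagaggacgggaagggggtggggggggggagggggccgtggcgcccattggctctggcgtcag
Elovl7: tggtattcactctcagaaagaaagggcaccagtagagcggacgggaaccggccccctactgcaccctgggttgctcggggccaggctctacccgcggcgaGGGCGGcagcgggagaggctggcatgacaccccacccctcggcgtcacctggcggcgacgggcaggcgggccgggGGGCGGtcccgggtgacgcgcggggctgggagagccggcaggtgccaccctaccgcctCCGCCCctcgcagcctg
Galc: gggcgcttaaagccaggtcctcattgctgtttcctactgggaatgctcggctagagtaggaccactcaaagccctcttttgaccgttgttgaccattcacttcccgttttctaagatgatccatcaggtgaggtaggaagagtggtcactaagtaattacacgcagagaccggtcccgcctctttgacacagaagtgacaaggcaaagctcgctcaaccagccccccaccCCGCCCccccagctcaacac
The Ugt8a and Elovl7 windows each held 3 GC boxes, the Galc window held 1, and the Gal3st1 window held 0 GC boxes and 1 SOX core. A GC box was found in 32.7% and a SOX core in 25.2% of all 32851 promoter windows of this length. The core of the MYRF motif (CTGGCAC, in 4.19% of all windows) was in none of the 15 windows of the members. G and C made up 76.8% of the Ugt8a window, 73.6% of the Elovl7 window, 65.6% of the Gal3st1 window and 54% of the Galc window. These matches describe letters in the sequence and not binding.

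Nuclei were assigned to classes by marker genes. A nucleus entered a class when the UMIs (unique molecular identifiers, 1 per captured transcript) of its marker list reached at least 4 times the share expected in its library and at least 3 markers were detected, and nuclei that met the gates of unrelated classes were left out. This placed 33859 of 75867 nuclei (44.6%) in 17 classes, of which 5 were stages of the oligodendrocyte lineage with 7435 nuclei. The stages were oligodendrocyte precursor cells (OPCs, 3017 nuclei), dividing progenitors (147), committed precursors (1072), newly formed oligodendrocytes (1020) and mature oligodendrocytes (2179). The number of nuclei per library ranged from 313 to 633 in OPCs, from 92 to 277 in committed precursors, from 39 to 309 in newly formed and from 102 to 624 in mature oligodendrocytes. Median depth was 3490 UMIs per nucleus in OPCs and between 4396 and 4602 in the following 3 stages. Cspg4 went from 190 CPM in OPCs to 11.0 CPM in mature oligodendrocytes, Bmp4 had its peak of 196 in committed precursors, Enpp6 its peak of 555 in newly formed and Aspa its peak of 318 in mature oligodendrocytes, but these genes also served for the gates. Not every marker had its peak in its own stage. Kndc1, on the newly formed list, was at 397.5 CPM in newly formed and 626 CPM in mature oligodendrocytes. Itpr2, on the same list, was at 1009 and 79.8 CPM. The borders between stages are not sharp. In the committed class 78.5% of nuclei had no more than its minimum of 2 markers, and Enpp6 was at 357 CPM, while a second stage scored within 1.5-fold for 37.2% of newly formed, 33.3% of OPC and 8.21% of committed nuclei. Of nuclei that met a lineage gate, 18.2% also met another gate and were left out, and 631 barcode sequences occurred in more than 1 library.

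Between OPCs and mature oligodendrocytes, the genes of the set for making galactolipid rose, and of those for breaking it down neither passed the rule for a call. Sums over 6 libraries of Ugt8a, Gal3st1, Fa2h, Cers2, Elovl1 and Elovl7 were all at least 2-fold higher in mature oligodendrocytes than in OPCs, and each was higher in 6 of 6 libraries. Galc and Sgms1 were lower in mature oligodendrocytes in 6 of 6 libraries without reaching a 2-fold difference, and Arsa was higher in 6 of 6 libraries with an interval that reached close to 0. The libraries mix both genotypes with no key, so they were not taken as replicates of 1 group and no test was run. Stages were compared within each library, and a gene was called higher or lower between 2 stages when the sums differed at least 2-fold and all libraries had that direction. By this rule 6 of 9 members were higher in mature oligodendrocytes than in OPCs, where 6.24% of 16841 genes were called higher, and 0 of 9 were lower, where 7.51% were called lower. The median log2 ratio was 1.89 over the members and -0.11 over all genes with at least 20 UMIs in the 2 stages. Levels below are CPM, intervals are exact 95% intervals that cover counting error only, and the n is 6 libraries throughout.

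**Figure D1:**
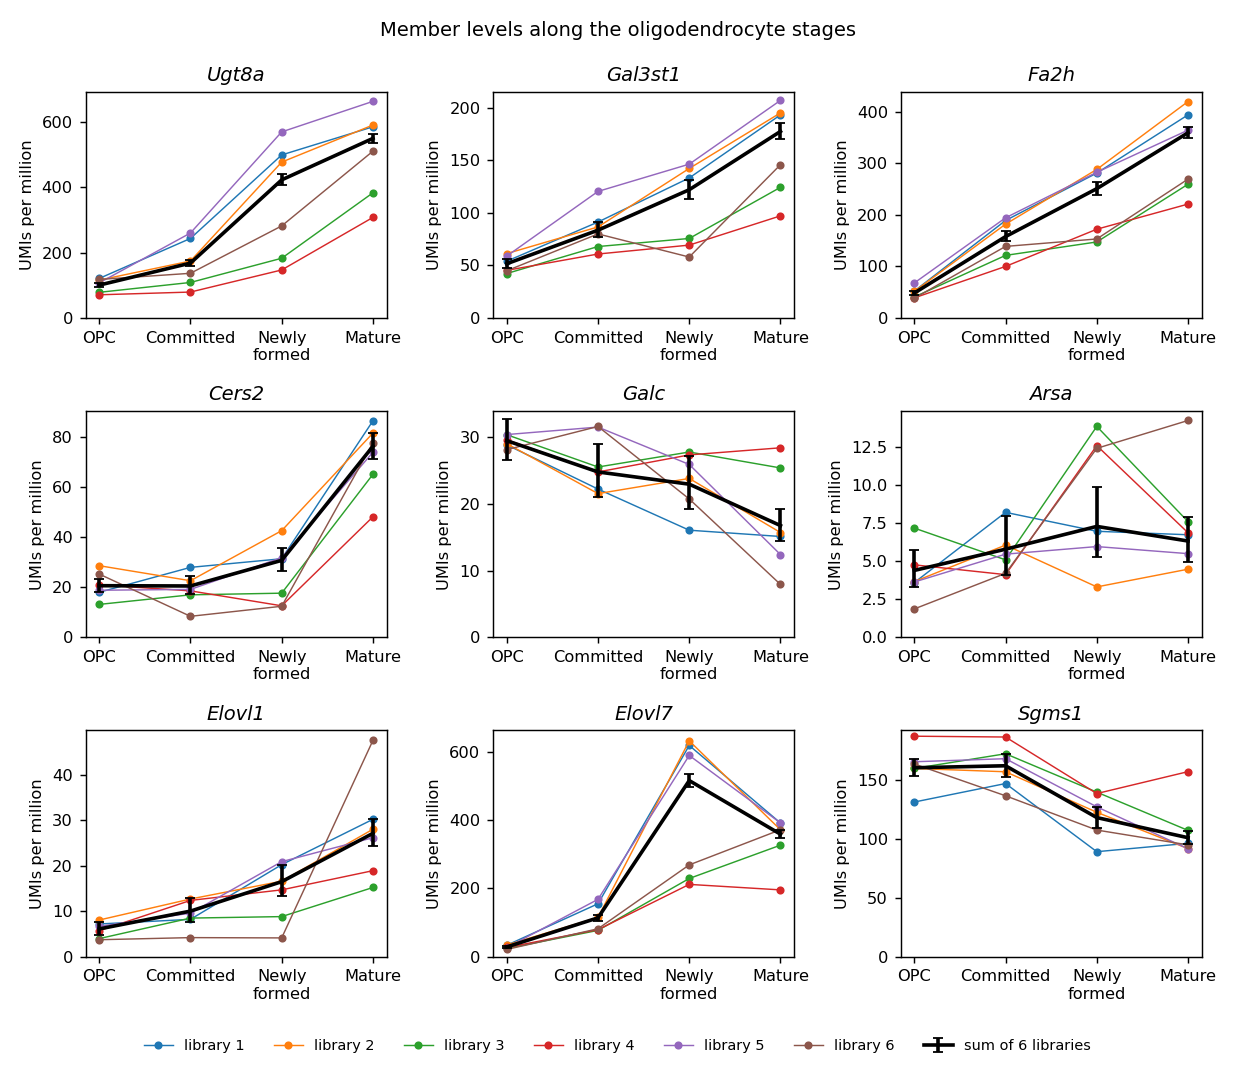
Level of each of the 9 members (CPM, linear axis from 0) in OPCs, committed precursors, newly formed and mature oligodendrocytes, with thin lines for the 6 libraries and the black line for the sum of all libraries with its 95% Poisson interval. Ugt8a, Gal3st1 and Fa2h rose at each step of the sum, Elovl7 had its peak of 516 in newly formed oligodendrocytes, Cers2 rose at the last step, and Galc and Sgms1 ended lower than they began.

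Ugt8a commits ceramide to the galactolipid branch. Its level was 101 CPM in OPCs (interval 95.0 to 106), 168 CPM in committed precursors (158 to 178), 422 CPM in newly formed oligodendrocytes (406 to 439) and 549 CPM in mature oligodendrocytes (536 to 563). Among the 6 libraries, the lowest, median and highest CPM were 71.0, 111.6 and 121 in OPCs and 308, 547 and 662 in mature oligodendrocytes. All libraries were higher in the mature stage than any library in OPCs. In newly formed oligodendrocytes the lowest, median and highest were 147, 379 and 569 CPM, far wider than the counting interval. The ratio of mature oligodendrocytes to OPCs was 5.46-fold (log2 2.45, interval 2.36 to 2.54). The step from committed to newly formed was the one past 2-fold for this gene, at log2 1.33 (1.23 to 1.44), and the preceding step was log2 0.74 (0.62 to 0.86). Within libraries the median of these steps was lower, at log2 1.04 (0.75 to 1.45 over the libraries) and log2 0.53 (0.16 to 1.27). Where these steps fall depends on the border between both stages, since with Bcas1 and Tns3 kept in the marker lists the values were log2 0.97 for the step from committed to newly formed and log2 1.17 for the step from OPC to committed, and with 1 marker fewer in each gate they were log2 2.00 and log2 0.30.

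Gal3st1 acts on the product of Ugt8a, and its level rose in smaller steps. It was 51.6 CPM in OPCs (47.6 to 55.8), 83.5 CPM in committed precursors (76.5 to 90.9), 122 CPM in newly formed (113 to 131) and 177 CPM in mature oligodendrocytes (170 to 185). The lowest, median and highest library CPM were 42.3, 49.6 and 61.2 in OPCs and 97.1, 169 and 207 in mature oligodendrocytes, and these ranges did not overlap. No single step reached 2-fold, at log2 0.69, 0.55 and 0.54 in order, though with 1 marker fewer in each gate the first was log2 0.13 and the second log2 1.18, not called. Within libraries the medians of the 3 steps were log2 0.72, 0.23 and 0.52, and the second ran from log2 -0.46 to 0.715. Mature oligodendrocytes exceeded OPCs 3.44-fold (log2 1.78, 1.65 to 1.91). In library 6, with 39 newly formed nuclei, the level in newly formed oligodendrocytes (58.0 CPM) was under that in committed precursors (79.9 CPM).

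Fa2h rose earlier. Its level was 48.4 CPM in OPCs (44.6 to 52.5) and already 158 CPM in committed precursors (148 to 168), then 251 CPM in newly formed (238 to 264) and 359 CPM in mature oligodendrocytes (348 to 370). The library CPM ran from 38.4 over a median of 46.2 to 68.0 in OPCs and from 100 over 160 to 194 in committed precursors, so that every library of the later stage exceeded every library of the earlier one. The first step was 3.26-fold (log2 1.71, 1.56 to 1.85), and the ratio of mature oligodendrocytes to OPCs was 7.42-fold (log2 2.89, 2.77 to 3.02).

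Of the enzymes that set the length of the acyl chain, Elovl7 changed most and had the earliest peak. Its level was 28.9 CPM in OPCs (25.9 to 32.0), 114 CPM in committed precursors (106 to 123), 516 CPM in newly formed (498 to 535) and 359 CPM in mature oligodendrocytes (348 to 370). The lowest, median and highest library CPM were 21.5, 26.9 and 34.5 in OPCs, 77.3, 98.6 and 168 in committed precursors, 212, 429 and 632 in newly formed and 196, 372 and 392 in mature oligodendrocytes. The 3 earliest stages did not overlap between libraries, whereas the newly formed and mature ranges did. Elovl7 passed 2-fold at the first step (log2 1.98, 1.80 to 2.17) and again at the second (log2 2.18, 2.06 to 2.30). Within libraries the medians of these steps were log2 1.84 (1.55 to 2.66 over the libraries) and log2 1.76 (1.42 to 2.46). From newly formed to mature oligodendrocytes its ratio was log2 -0.52 (-0.59 to -0.46), lower in 4 of 6 libraries and higher in libraries 3 and 6. Mature oligodendrocytes nonetheless exceeded OPCs 12.4-fold (log2 3.64, 3.48 to 3.80), the largest ratio among the members.

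Cers2 and Elovl1 had their highest level in the mature stage. Cers2 was 20.6 CPM in OPCs (18.1 to 23.3), 20.5 CPM in committed precursors (17.1 to 24.3), 30.7 CPM in newly formed (26.4 to 35.6) and 76.2 CPM in mature oligodendrocytes (71.3 to 81.4). Its library CPM ran from 12.4 over a median of 24.5 to 42.6 in newly formed and from 48.1 over 75.7 to 86.4 in mature oligodendrocytes, with no overlap. The last step was the one past 2-fold for Cers2, at 2.48-fold (log2 1.31, 1.08 to 1.55), and the first step was log2 -0.01 (-0.32 to 0.30). Cers2 was thus the 1 member whose called step came after the newly formed stage. Elovl1 was 6.11 CPM in OPCs (4.81 to 7.66), 10.0 CPM in committed precursors (7.72 to 12.8), 16.5 CPM in newly formed (13.3 to 20.2) and 27.1 CPM in mature oligodendrocytes (24.2 to 30.2). Its 3 steps in the sums were log2 0.71, 0.72 and 0.72, none past 2-fold. Within libraries their medians were log2 0.59, 0.32 and 0.67, and the second step was higher in 5 of 6 libraries. The exception was library 6, on 1 UMI in newly formed and 2 UMIs in committed nuclei. Together the steps of the sums gave log2 2.15 (1.78 to 2.53) between OPCs and mature oligodendrocytes. The library CPM of Elovl1 ran from 3.74 to 8.07 in OPCs and from 15.2 to 47.5 in mature oligodendrocytes, on 75 and 321 UMIs.

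At each single step few members were called. From OPC to committed precursor 2 of 9 were called higher (Fa2h and Elovl7), where 1.93% of all tested genes were called higher and 1.9% lower. From committed to newly formed 2 of 9 were called higher (Ugt8a and Elovl7), against 2.26% of genes higher and 2.4% lower. From newly formed to mature 1 of 9 was called higher (Cers2), against 3.25% of genes higher and 2.6% lower. No member was called lower at a step. With 1 marker fewer in each gate, Fa2h was also called from committed to newly formed (log2 1.37), and its first step was log2 1.22 and that of Elovl7 log2 1.31, both still called. Median log2 ratios over the members were 0.69, 0.58 and 0.38 for the 3 steps in order, and over all tested genes 0.00, -0.15 and 0.04.

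**Figure D2:**
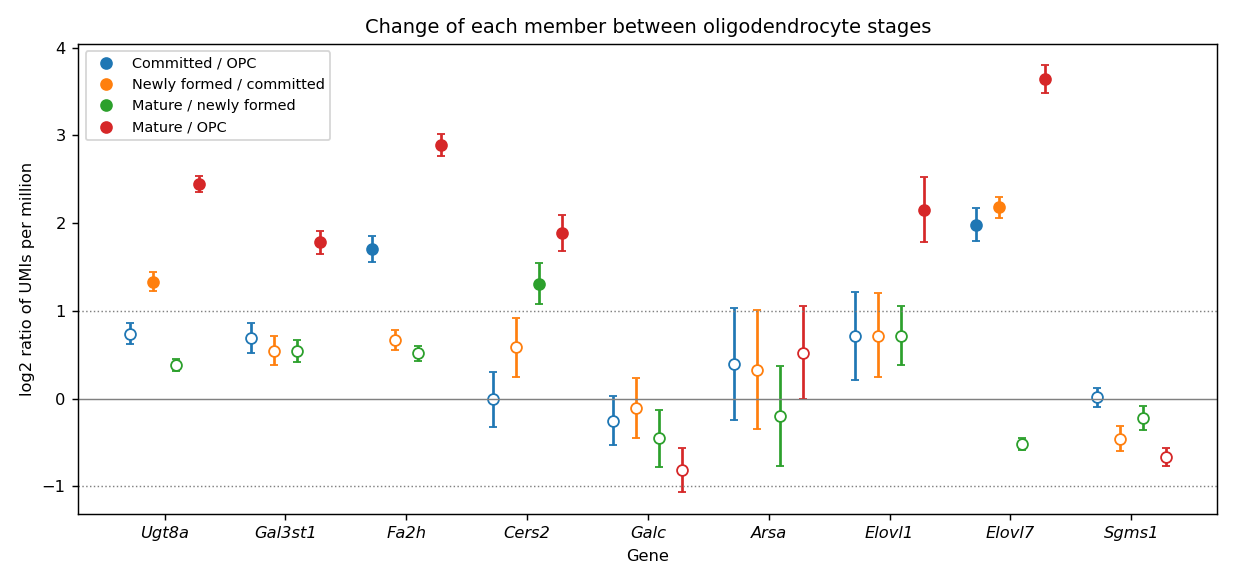
Log2 ratio of CPM for each member at 3 successive stage steps and from OPC to mature oligodendrocyte, with exact 95% intervals of the counts. Filled points were at least 2-fold (dotted lines) and had the same direction in 6 of 6 libraries; 6 members are filled for mature over OPC, and Galc and Sgms1 lie below 0.

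Galc did not follow the synthetic enzymes. It was 29.4 CPM in OPCs (26.5 to 32.6), 24.7 CPM in committed precursors (21.03 to 28.9), 22.9 CPM in newly formed (19.2 to 27.2) and 16.7 CPM in mature oligodendrocytes (14.5 to 19.2). OPCs of the 6 libraries were close together, from 28.1 over a median of 29.3 to 30.3 CPM, while mature oligodendrocytes ran from 7.92 over 15.4 to 28.4 CPM, and library 4 (28.4 CPM) reached into the range of OPCs. The ratio of mature oligodendrocytes to OPCs was log2 -0.82 (-1.07 to -0.56), lower in 6 of 6 libraries and short of 2-fold. Without nuclei whose neuronal RNA was at or above 0.5 times the share of their library, the ratio was log2 -1.15, past 2-fold. Arsa, the other lysosomal enzyme, was low in all stages, with 4.40 CPM in OPCs (3.31 to 5.74), 5.79 CPM in committed precursors (4.08 to 7.99), 7.29 CPM in newly formed (5.26 to 9.86) and 6.33 CPM in mature oligodendrocytes (4.98 to 7.94). These rest on 54, 37, 42 and 75 UMIs, and intervals of neighbouring stages overlapped. The ratio of mature oligodendrocytes to OPCs for Arsa was log2 0.525 (0.00107 to 1.06), higher in 6 of 6 libraries, so that this depth separates neither a difference near 0 nor one of 2-fold.

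Sgms1 competes with Ugt8a for ceramide. Its level was 160 CPM in OPCs (154 to 168), 162 CPM in committed precursors (153 to 172), 118 CPM in newly formed (110 to 127) and 101 CPM in mature oligodendrocytes (95.5 to 107). The lowest, median and highest library CPM were 131, 162 and 187 in OPCs and 91.7, 95.7 and 157 in mature oligodendrocytes. The ranges overlapped through library 4, which was the highest in both stages, and within each of the 6 libraries the mature stage was lower. The ratio of mature oligodendrocytes to OPCs was log2 -0.67 (-0.77 to -0.56), and the step from committed to newly formed was lower in 6 of 6 libraries at log2 -0.46 (-0.60 to -0.32). Scaling by median-of-ratios size factors shifted mature oligodendrocytes by 0.13 on the log2 scale against OPCs and changed neither the direction of Galc nor that of Sgms1 between these stages.

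For Ugt8a, Gal3st1, Fa2h, Galc, Elovl1 and Elovl7, the 4 stages had the same order by CPM and by the share of nuclei with at least 1 UMI after every nucleus was thinned to 2000 UMIs. For Cers2 and Sgms1 the OPC and committed stages, and for Arsa the newly formed and mature stages, changed places, and these neighbours lay close on both scales. For Ugt8a the thinned share was 18.7% in OPCs, 27.9% in committed precursors, 51.0% in newly formed and 58.9% in mature oligodendrocytes. It was 3.95% in excitatory neurons (unthinned, in the same order, 30.6%, 48.0%, 71.0%, 71.8% and 11.9%). For Fa2h it was 9.52%, 28.9%, 39.0% and 47.2% in the same stages and 1.05% in excitatory neurons (unthinned 16.6%, 50.1%, 62.8%, 63.7% and 3.09%). For Galc it was 5.62% in OPCs and 3.02% in mature oligodendrocytes (unthinned 10.5% and 8.12%), so that the lower level of Galc went with fewer nuclei in which it was seen. Thinning left out 291 OPCs, 42 committed, 44 newly formed and 308 mature nuclei of lower depth, and 408 excitatory neurons, whose median depth was 7054 UMIs.

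Library differences within a stage were large for the synthetic genes and for Galc. In mature oligodendrocytes Galc ran from 7.92 CPM in library 6, on 5 UMIs, to 28.4 CPM in library 4. Library 3 had the lowest CPM of Elovl1 (15.2). Library 4 had the lowest of Ugt8a (308), Gal3st1 (97.1), Fa2h (221), Cers2 (48.1) and Elovl7 (196). In library 4, Mbp, which encodes myelin basic protein, was also at its lowest in mature oligodendrocytes, at 3156 CPM against a range of 4425 to 7880 CPM in the other libraries. The summed list of 6 neuronal genes made up 0.88% of UMIs in the mature nuclei of library 4 and 0.43% to 0.58% in those of the other libraries. Among newly formed nuclei this list made up between 0.36% and 1.15% of UMIs. Removing nuclei with the most neuronal RNA left 1608 mature nuclei, in which Ugt8a was 671 CPM, Fa2h 446 CPM and Elovl7 450 CPM, and the 6 calls between OPCs and mature oligodendrocytes were as before. The gates were set against each library's own share of marker UMIs, so the marker level needed for a stage can differ between libraries. The part that the gates, neuronal RNA or genotype play in the differences between libraries was not tested.

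Across all 17 classes the members had different breadth. Lineage nuclei held 18.8% of all UMIs in classes, but 87.2% of the Fa2h, 79.6% of the Gal3st1, 78.6% of the Ugt8a and 73.9% of the Elovl7 UMIs. For Cers2 the share was 40.4% and for Elovl1 37.9%. For Arsa (18.1%), Galc (16.2%) and Sgms1 (11.8%) it was at or under the share of all UMIs. Mature oligodendrocytes had the highest level of Ugt8a, Gal3st1, Fa2h, Cers2 and Elovl1 among the classes, and newly formed oligodendrocytes that of Elovl7. In the sums, Galc and Sgms1 had their lowest level of all 17 classes in mature oligodendrocytes. For Galc the interval (14.5 to 19.2) overlapped that of mural nuclei (16.2 to 29.2). This rank did not hold in every library. In library 4, Galc was at 15.5 CPM in neuroblasts and 28.4 CPM in mature oligodendrocytes. Sgms1 was at 139 CPM in newly formed and 157 CPM in mature oligodendrocytes there.

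**Figure D3:**
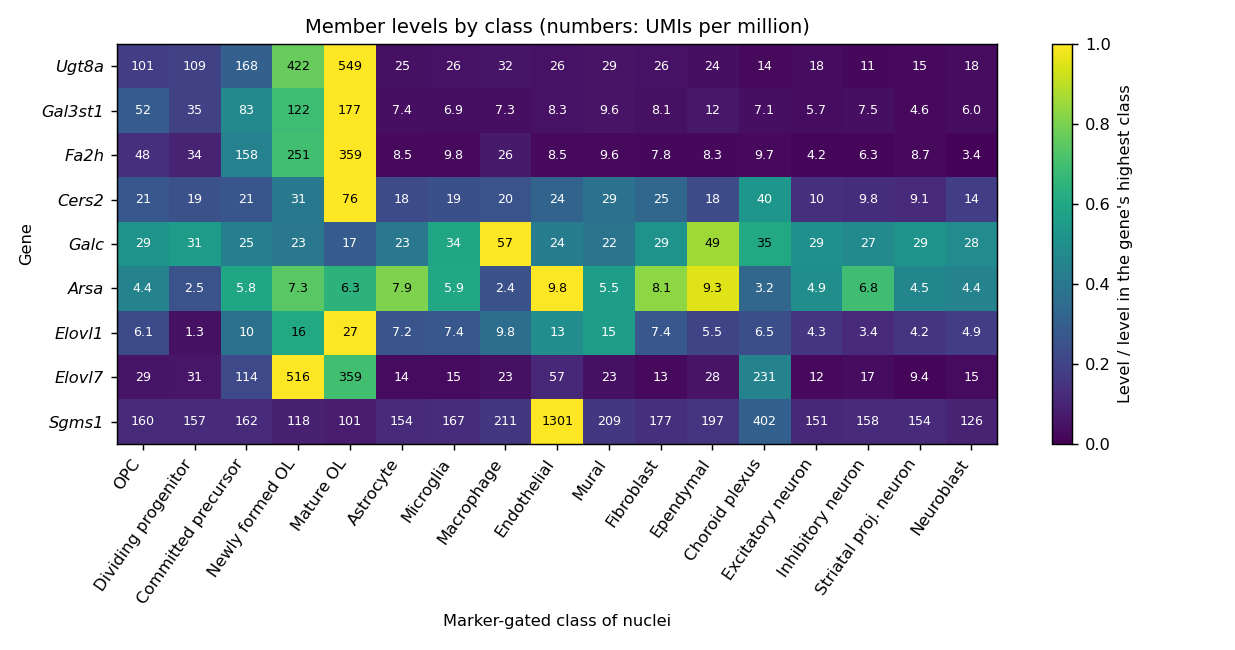
Heat map of the 9 members (rows) in the 17 marker-gated classes (columns); numbers are CPM and colour is the level relative to the highest class of that gene. Ugt8a, Gal3st1 and Fa2h are brightest in mature and then newly formed oligodendrocytes, and dim in OPCs, dividing progenitors and outside the lineage. Sgms1 is brightest in endothelial nuclei (1301), and Elovl7 also stands out in choroid plexus (231). Galc is brightest in macrophages and ependymal nuclei.

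Outside the lineage, the sums of Ugt8a lay between 11.5 and 31.7 CPM, Gal3st1 between 4.604 and 11.75 CPM and Fa2h between 3.37 and 25.6 CPM. Single libraries ran wider. Ugt8a was at 4.75 to 39.2 CPM across libraries in astrocytes, 7.38 to 49.95 CPM in microglia and 2.26 to 42.5 CPM in endothelial nuclei. Mbp, a gene of myelinating cells, was counted at 274 to 1369 CPM in the 12 classes outside the lineage. Per 100 UMIs of Mbp, mature oligodendrocytes had 8.2 UMIs of Ugt8a, and the classes outside the lineage had 1.47 to 4.88. For Fa2h the value was 5.36 in mature oligodendrocytes and 0.62 to 2.50 outside the lineage. For Gal3st1 it was 2.65 in mature oligodendrocytes and 0.54 to 2.73 outside, with inhibitory neurons (2.73, on 109 UMIs) alone above the mature value. Ugt8a and Fa2h were thus lower relative to Mbp in each of these classes than in mature oligodendrocytes. No empty droplets were analysed here, and the part that free RNA, mixed droplets or expression plays in these counts was not tested. In OPCs the values were higher than in mature oligodendrocytes, at 16.1 for Ugt8a, 8.26 for Gal3st1 and 7.75 for Fa2h. In OPCs of libraries 1 to 6, Mbp was at 1016, 1068, 273, 214, 755 and 109.5 CPM, and Ugt8a at 121, 116, 78.6, 71.0, 107 and 118 CPM. The libraries with low Mbp also had low Ugt8a except library 6, which had the lowest Mbp and the second highest Ugt8a.

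**Figure D4:**
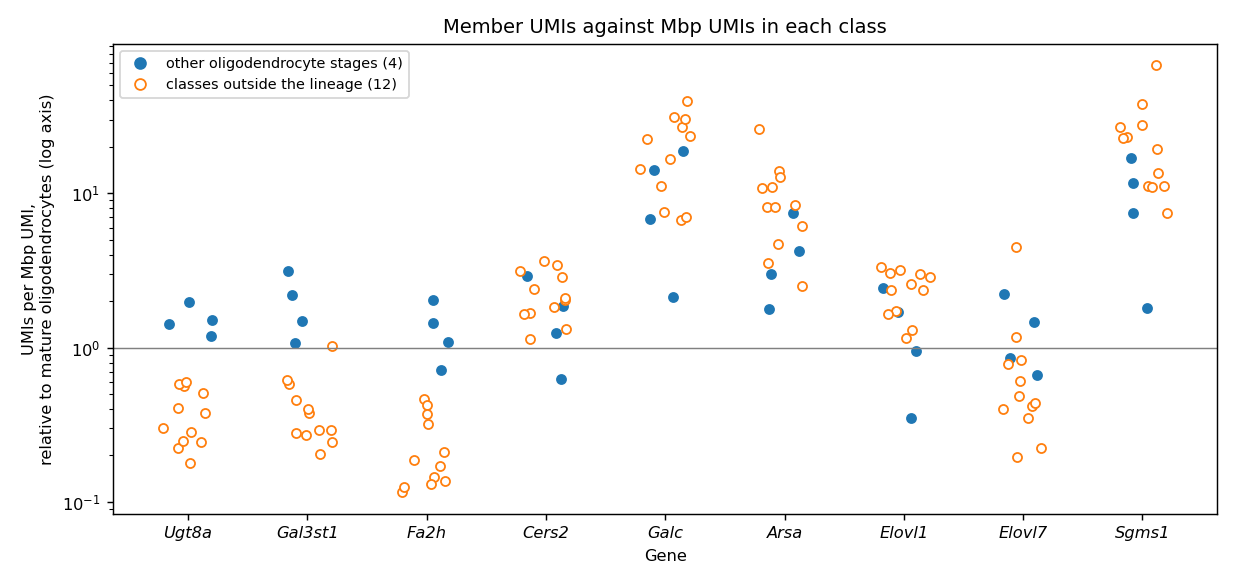
UMIs of each member per UMI of Mbp, relative to mature oligodendrocytes (log axis, 1 marks the mature value), for 4 other lineage stages (filled) and 12 classes outside the lineage (open). For Ugt8a and Fa2h all open points lie below 1, whereas for Cers2, Galc, Arsa, Elovl1 and Sgms1 all open points lie above 1, and for Elovl7 choroid plexus stands highest at 4.465.

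Elovl7 had a further site of expression in choroid plexus, the epithelium that secretes cerebrospinal fluid. Its level there was 231 CPM (208 to 257, 358 UMIs in 278 nuclei), with a lowest, median and highest library CPM of 150, 258 and 299, so that all libraries exceeded the highest of OPCs (34.5 CPM). At 2000 UMIs per nucleus, 36.7% of choroid plexus nuclei had a UMI of Elovl7 against 2.66% of excitatory neurons (unthinned 64.4% and 8.26%). Endothelial nuclei followed at 56.9 CPM (52.4 to 61.6), with 37.15 to 80.2 CPM across libraries. Choroid plexus was also second for Cers2, at 40.1 CPM (30.7 to 51.4, 62 UMIs), but this interval overlapped that of mural nuclei (28.9 CPM, 22.2 to 36.9). The libraries of choroid plexus ran from 9.33 CPM, on 1 UMI in library 6, to 58.5 CPM.

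Sgms1 was an endothelial transcript above all. Its level was 1301 CPM in endothelial nuclei (1280 to 1323), with a lowest, median and highest library CPM of 1071, 1392 and 1595. Choroid plexus followed at 402 CPM (371 to 435), with 330, 414 and 560 CPM, and no library of choroid plexus reached the lowest endothelial library. The log2 ratio of endothelial nuclei to choroid plexus was 1.69. The remaining 15 classes lay between 101 and 211 CPM, so that the gene was counted in every class. A UMI of Sgms1 was seen in 84.7% of endothelial and 51.8% of choroid plexus nuclei thinned to 2000 UMIs, against 16.5% of mature oligodendrocytes and 24.8% of excitatory neurons (unthinned 86.1%, 77.3%, 33.6% and 57.8%).

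Galc was highest in macrophages and ependymal nuclei. Macrophages had 57.4 CPM (42.1 to 76.3, 47 UMIs in 150 nuclei) and ependymal nuclei 49.1 CPM (41.3 to 57.8), and these intervals overlapped. Choroid plexus (34.9 CPM, 26.2 to 45.6) and microglia (33.7 CPM, 30.3 to 37.4) came next and did not differ from each other beyond counting error. Ependymal libraries ran from 37.4 to 58.3 CPM and mature oligodendrocytes from 7.92 to 28.4 CPM, with no overlap. Excitatory, inhibitory and striatal projection neurons were at 28.85, 27.2 and 29.4 CPM, near the level of OPCs. Arsa was highest in endothelial (9.82 CPM, 8.03 to 11.9) and ependymal nuclei (9.33 CPM, 6.15 to 13.6), with overlapping intervals, and between 2.44 and 8.13 CPM in the other 15 classes.

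Across the 17 classes, the members with the most similar patterns were Ugt8a, Gal3st1 and Fa2h. Pearson's r of log2(CPM + 1) was 0.97 for Ugt8a with Gal3st1, 0.96 for Ugt8a with Fa2h and 0.955 for Gal3st1 with Fa2h. Elovl7 followed with r of 0.72 to 0.77 to these 3 genes. Galc had r of -0.44 with Ugt8a and Sgms1 had -0.35. Among 14822 genes with at least 1000 UMIs, leaving out members and class markers, the gene most like Ugt8a (r = 0.99), Gal3st1 (0.974) and Fa2h (0.975) was in each case Gjc3, which encodes a gap junction protein of myelinating glia. Plxnb3, a plexin, came second for Ugt8a (0.98) and Gal3st1 (0.97), Gm10863 next for Ugt8a (0.96) and Fa2h (0.96), Phldb1 next for Gal3st1 (0.96) and 1700047M11Rik second for Fa2h (0.96). The genes most like Cers2 were Phlda3 (0.95), Gsn, which encodes the actin-severing protein gelsolin (0.93), and Ywhaq (0.92). Sgms1 was most like Cyyr1 (0.95), Abcc4, an efflux transporter (0.93), and Ly75, an endocytic receptor (0.93). Elovl1 was closest to Fkbp1a (0.93), Rhog (0.91) and Map7d1 (0.90), Galc to Iqgap2 (0.915), Umad1 (0.82) and AC171003.1 (0.81), Elovl7 to Dicer1 (0.85), Exog (0.85) and Dach2 (0.85), and Arsa to Spns1 (0.82), Tapbpl (0.81) and 9130401M01Rik (0.81). These correlations are across 17 classes that share libraries, depth and free RNA, and they are a description.

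Other genes of sphingolipid metabolism were called by the same rule. Of a list of 54 genes for ceramide synthesis, chain elongation, other head groups and breakdown, 51 had enough UMIs to compare mature oligodendrocytes with OPCs, and 0 were called higher and 1 lower, where 6.24% and 7.51% of all genes were. Between OPCs and newly formed oligodendrocytes 2 of 49 were called higher, where 4.05% of all genes were, and 2 were called lower, where 6.44% were. The median log2 ratio of mature oligodendrocytes to OPCs was 0.01 over 15 genes of ceramide synthesis, 0.02 over 10 of chain elongation, 0.31 over 7 of other head groups and transfer, and -0.21 over 19 of breakdown.

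Sgms2, a second sphingomyelin synthase, rose and fell within the lineage. It was 5.38 CPM in OPCs, 8.93 CPM in committed precursors, 27.8 CPM in newly formed and 9.62 CPM in mature oligodendrocytes. Its ratio of newly formed oligodendrocytes to OPCs was log2 2.37 (1.95 to 2.80, 6 of 6 libraries higher), and that of mature to newly formed oligodendrocytes was log2 -1.53 (-1.89 to -1.17, 6 of 6 lower). Gltp, which encodes a glycolipid transfer protein, was at 17.4 CPM in OPCs and 35.8 CPM in newly formed oligodendrocytes (log2 1.04, 0.75 to 1.32), a call that was lost under 6 of 16 alternatives, among them leaving out library 1, 4 or 6 (log2 0.81 to 1.22). Asah2, the neutral ceramidase, was at 19.1 CPM in OPCs, 8.85 CPM in newly formed and 28.6 CPM in mature oligodendrocytes, so that it fell (log2 -1.11, -1.57 to -0.67) and then rose (log2 1.69, 1.26 to 2.15). The fall was lost under 5 of 16 alternatives (log2 -1.45 to -0.93), among them size factors and 1 marker more or fewer, and the rise under 0. Cers4, another ceramide synthase, was lower in both later stages, with 77.1 CPM in OPCs, 33.7 CPM in newly formed and 32.7 CPM in mature oligodendrocytes (log2 -1.24 for mature over OPC, -1.41 to -1.07). Its call in newly formed oligodendrocytes was lost under 4 of 16 alternatives, size factors included (log2 -1.82 to -1.02), and that in mature oligodendrocytes under 0.

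Within the ceramide synthase family, which was looked at more closely after its values were seen, Cers2 was the 1 gene called higher in mature oligodendrocytes than in OPCs. Cers5 was at 106 CPM in OPCs and 70.7 CPM in mature oligodendrocytes (log2 -0.58, lower in 6 of 6 libraries), Cers6 at 98.0 and 73.4 CPM (log2 -0.42, lower in 4 of 6) and Cers1 at 18.1 and 19.8 CPM (log2 0.13, higher in 4 of 6). Cers3 was at 0.98 and 2.03 CPM on 12 and 24 UMIs (log2 1.05, -0.00497 to 2.18, higher in 5 of 6 libraries), past 2-fold but not called. Among the elongases outside the set, none was called. Elovl5 (log2 0.38) and Elovl6 (log2 0.42) were higher in mature oligodendrocytes in 6 of 6 libraries and short of 2-fold. Elovl4 was at log2 -0.32 (-0.59 to -0.05, lower in 5 of 6 libraries), Elovl2 at log2 0.21 (-0.36 to 0.79, higher in 3 of 6), and Elovl3 had 0 UMIs in both stages.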

How the data were processed

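Nuclear RNA of 6 mice was sequenced on the 10x Genomics platform. The deposited matrix holds raw UMI counts, whole numbers that were not normalized. Per the file headers it was written by Cell Ranger 6.0.0, the submitters' processing notes name Cell Ranger 2.1.1 and mm10, and the authors describe STARsolo with GRCm38, filters and imputation, so which steps made the deposited counts is unclear. It held 75878 barcodes with 497750379 UMIs, of which 11 barcodes at or above 10% mitochondrial UMIs were left out, and the median depth per library was 4469 to 5439 UMIs. Doublets were handled only by leaving out the 4833 nuclei (6.37%) that met unrelated gates. Class gates needed 4 times the library's share of marker UMIs and 3 markers, with 2 times and 2 markers for excitatory neurons and 2 markers for committed precursors, from whose list Bcas1 and Tns3 were dropped (Bcas1 also from the newly formed list). These thresholds were set after counts had been seen. The highest fold decided within the lineage, the myeloid and the neuronal family, and dividing progenitors also met the OPC gate. UMIs were summed per class and scaled to CPM, with exact Poisson intervals for levels and exact binomial intervals for ratios (95%, counting error only). A call needed 20 UMIs, a 2-fold ratio and the same direction in 6 of 6 libraries. Cells are not replicates, and the libraries mix both genotypes with no key, so they were not treated as replicates of a group and no p-value was computed. The rule for named genes took all 9 members, pathway genes called in newly formed or mature oligodendrocytes, and the 3 genes most correlated with each member. Ratios were checked on simulated Poisson counts in which a gene had the same rate in each library. The real libraries differ within a stage, so that check does not cover differences between libraries. The members and lists were chosen with earlier results of these data known. Python 3.11.15 with numpy 2.4.6, scipy 1.17.1 and pandas 2.3.3 was used. The scaling to Mbp UMIs was chosen after the values had been seen.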

Additional observations from a re-analysis of the deposited data

How the results depend on the processing

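Across genotypes, no paired analysis was possible because the replicate numbers of the mice could not be matched to the libraries. Stages were paired within each library by direction, and a paired test of stages was not run. Of 16 alternatives to each stage ratio of the members, none reversed a called direction. The 6 calls between OPCs and mature oligodendrocytes held in all 16, with log2 ranges of 2.26 to 2.69 for Ugt8a, 1.62 to 1.96 for Gal3st1, 2.64 to 3.23 for Fa2h, 1.74 to 2.11 for Cers2, 2.00 to 2.36 for Elovl1 and 3.41 to 3.81 for Elovl7. Arsa passed 2-fold there with the mean over nuclei (log2 1.03). With Bcas1 and Tns3 kept in the lists, an alternative added after seeing the data, 1 member in place of 2 was called higher from committed to newly formed and 3 in place of 2 from OPC to committed (Ugt8a added, log2 1.17). With 1 marker fewer, 3 in place of 2 were called from committed to newly formed (Fa2h added, log2 1.37). Without nuclei of high neuronal RNA, also added after seeing the data, 1 member (Galc) in place of 0 was called lower from OPC to mature. With each of the 6 libraries left out in turn, the counts of called members stayed at 6 higher for mature over OPC, 2 for committed over OPC, 2 for newly formed over committed and 1 for mature over newly formed, and at 0 lower for each. For the pathway list the counts moved between few genes. The main counts, higher and lower, were 0 and 0 (committed over OPC), 1 and 0 (newly formed over committed), 1 and 1 (mature over newly formed), 0 and 1 (mature over OPC) and 2 and 2 (newly formed over OPC). With 1 more marker they were 0 and 1, 1 and 0, 2 and 1, 0 and 2, and 2 and 1; with 1 marker fewer 0 and 0, 1 and 1, 2 and 1, 0 and 1, and 1 and 0. With nuclei of unrelated gates kept, 2 were higher for mature over newly formed and 1 for newly formed over OPC. Without nuclei under 2000 UMIs, 2, 2 and 1 were lower for mature over newly formed, mature over OPC and newly formed over OPC, and without the deepest nuclei of each library 2 for the first and 1 for the last. With the full lists, 1 was lower for newly formed over OPC. Without nuclei of high neuronal RNA, 2 were higher and 3 lower for mature over newly formed, 1 higher and 3 lower for mature over OPC, and 1 lower for newly formed over committed. With size factors, 2 were lower for mature over newly formed, 1 higher for mature over OPC and 0 lower for newly formed over OPC. The mean over nuclei gave 1 higher for mature over OPC, and the library median gave 2 higher for mature over newly formed, 2 lower for mature over OPC and 1 higher for newly formed over OPC. Without a UMI minimum, 4 were lower for newly formed over OPC. Without 1 library in turn, pathway counts ranged from 0 to 1 higher and 0 to 0 lower for committed over OPC (1 without library 4), 1 to 1 and 0 to 0 for newly formed over committed, 1 to 2 and 1 to 2 for mature over newly formed (2 higher without library 2, 4 or 5, 2 lower without library 3, 4 or 6), 0 to 1 and 1 to 1 for mature over OPC (1 higher without library 2), and 1 to 3 and 2 to 3 for newly formed over OPC (1 higher without library 1, 4 or 6). The class with the highest level was the same under 16 of 16 alternatives for 8 members, and for Arsa under 9, with ependymal nuclei highest in the other 7. Depth limits Arsa and Elovl1 most, which had the fewest UMIs.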

Other observations

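In newly formed oligodendrocytes the libraries were further apart in Elovl7 than in OPCs, where they ran from 21.5 to 34.5 CPM. Elovl7 was at 619 CPM in library 1, 632 CPM in library 2, 229 CPM in library 3, 212 CPM in library 4, 590 CPM in library 5 and 269 CPM in library 6. Mbp was at 5257, 4633, 1502, 1425, 6398 and 2351 CPM in the same nuclei of libraries 1 to 6, and the libraries with low Elovl7 were those with low Mbp. The neuronal genes made up 0.44%, 0.48%, 1.01%, 1.03%, 0.36% and 1.15% of UMIs in the same order, and these nuclei numbered 260, 309, 122, 86, 204 and 39. The libraries belong to no group here. The part of genotype in these values, for which no key to the mice was at hand, was not tested. Nor was that of neuronal RNA, of the number of nuclei or of the gates, which were set per library.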
